A study of Mus musculus with 6 samples.

Results

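A small set of liver nuclei carried transcripts of far more genes than the others. The nuclei described here are the barcodes with at least 1 transcript of 5000 or more genes and with under 5% of their transcripts from the mitochondrial genome. They were 1822 of the 41882 barcodes in 6 libraries, 4.35% of the barcodes, and they held 26.8% of all transcripts counted. The study removed nuclei at or over this gene limit before its own analysis, and its methods named too many genes as a possible sign of several cells behind 1 barcode. No doublet caller was run here, so whether a barcode held more than 1 nucleus was not tested. The nuclei were thus chosen by their gene number and mitochondrial share, so their depth and gene number are a description, and so are all differences between them and nuclei under the limit.

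Nuclei came from the snap-frozen livers of 6 male DIAMOND mice, a cross of 129A1/SvIm and C57BL/6J that develops fatty liver disease and then liver tumors on a high-fat diet with sugar water. Diets began at 2 months of age. Both Ctrl mice ate chow for 40 weeks, both Pre-T mice ate the Western diet (high fat with sugar water) for 40 weeks and had no tumors yet, and both Post-T mice ate it for 48 weeks and had tumors. Each mouse gave 1 library, and the mouse was the replicate. The titles of the Post-T samples name the tissue as tumor and their source as liver, so whether tumor tissue entered these libraries was not known here, and in Post-T the 8 further weeks and the tumors cannot be told apart. Transcripts were counted as unique molecular identifiers (UMIs), of which the libraries held 22453658 to 40307564. Where 6 values stand in a row, they belong to Ctrl 1 and 2, then to Pre-T 1 and 2, then to Post-T 1 and 2.

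Hepatocytes make up most of the liver's mass and secrete albumin, apolipoproteins and clotting factors under the control of transcription factors such as HNF4A. Many are polyploid. They border the sinusoids, whose walls are formed by Stab2-positive endothelial cells, with stellate cells behind that wall and resident macrophages (Kupffer cells) attached inside it.

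The number of these nuclei differed widely between mice, at 98, 342, 586, 428, 289 and 79. As a share of the nuclei under the mitochondrial limit they were 1.34, 4.21, 9.78, 5.17, 5.05 and 1.46%. Both Pre-T mice lay above both Ctrl mice and above both Post-T mice, while the Post-T and Ctrl mice overlapped. Ctrl averaged 2.78% ± 2.03 (SD, n = 2), Pre-T 7.48% ± 3.26 and Post-T 3.26% ± 2.54. The difference of Pre-T from Ctrl was 4.70 percentage points (exact two-sided permutation test, p = 0.333, the smallest that 2 against 2 mice allow), and that of Post-T from Ctrl was 0.481 (p = 0.667). Depth differed as well, since Pre-T 1 had 6543 UMIs per barcode and the other libraries 3789 to 4993. With all libraries thinned to the same mean the shares were 1.34, 3.19, 3.24, 4.60, 2.45 and 1.18%. The difference of Pre-T from Ctrl was then 1.66 points (exact permutation test, p = 0.333), and that of Post-T from Ctrl turned to -0.449 (p = 0.667). A smaller denominator was these nuclei plus the hepatocyte-like nuclei under the limit, which are named below. Over it, and without thinning, the shares were 2.36, 7.61, 28.4, 23.8, 10.0 and 2.62%. These are not shares of all hepatocyte nuclei, since clusters left unnamed were not counted. Cluster 8 held 2773 such nuclei of Pre-T 2, where 8 of 8 hepatocyte markers were raised. Cluster 26 held 875 nuclei of Pre-T 1 and 662 of Post-T 1, with 2 of 8 raised.

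**Figure D1:**
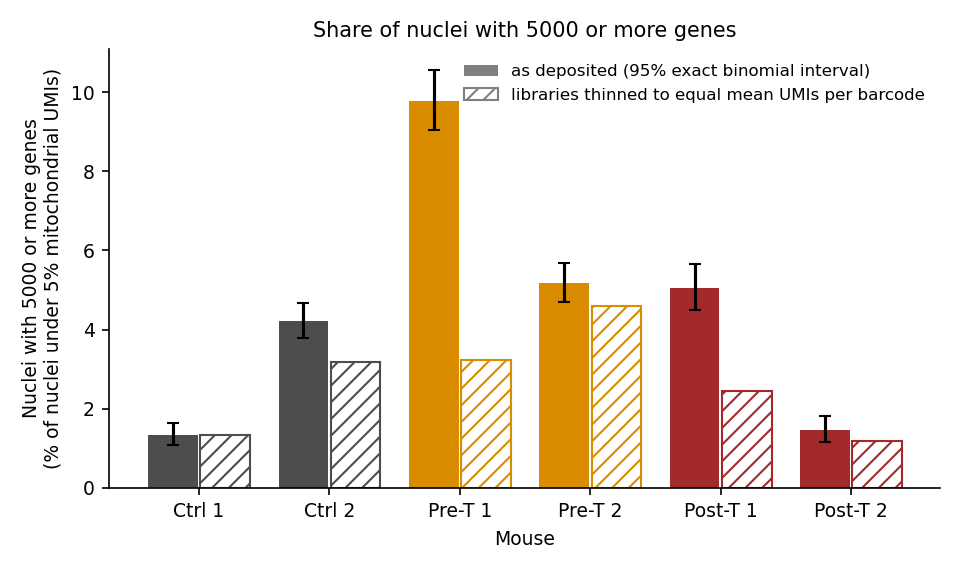
Share of nuclei with 5000 or more genes in each of the 6 mice, in percent of the nuclei with under 5% mitochondrial UMIs. Solid bars are the libraries as deposited with exact 95% binomial intervals, and hatched bars are the libraries thinned to the same mean UMIs per barcode. Pre-T 1 falls from 9.78% to 3.24% at the same mean, and Pre-T 2 is then the highest at 4.60%.

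The nuclei had a median of 23399 UMIs (11990 to 259240) and 5785 genes (up to 13823). Their median UMIs per mouse ran from 21735 in Pre-T 1 to 26181 in Ctrl 1, so the libraries were alike in this. The extreme nuclei were not spread evenly. Of 174 nuclei with 8000 or more genes, 65 were from Pre-T 1, 78 from Pre-T 2, 27 from Ctrl 2, 3 from Ctrl 1 and 1 from Post-T 1. All 49 nuclei with 10000 or more genes came from the Ctrl and Pre-T mice. The mitochondrial share was low, with medians of 0.116 to 1.15% per mouse. Any 2 libraries shared 7 to 21 barcode sequences, 11 of the 1822 nuclei had a barcode found in another library, and 0 were in the set from both. At the limit itself the 340 nuclei with 5000 to 5249 genes had a median of 18250 UMIs, against 16565 in the 430 nuclei with 4750 to 4999 genes. Alb stood at 3947 CPM (the counts of a gene when the summed UMIs are scaled to 1000000) inside the limit and at 3633 just outside, and Hnf4a at 315 and 322.

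To ask which lineages the nuclei carried, 16 lists of cell type markers were used, and every nucleus was thinned to 5000 UMIs so that all were read at the same depth. A list counted as carried when at least 2 of its markers had a UMI. The yardstick was 5497 hepatocyte-like nuclei under the limit with at least 5000 UMIs. Their median was 7373.5 to 10589 UMIs per mouse before thinning, so they were shallower than the nuclei described. A cluster with 3 or more raised markers of another list, or with 1 among its leading genes, could not be named hepatocyte-like. The nuclei described passed no such screen. How much of their excess in other lists, here and below, follows from this was not tested. Hepatocyte-like nuclei lay in different clusters in the 3 groups, 0 and 2 in Ctrl 1, 3 and 4 in Ctrl 2, 25 in Pre-T, 23 in Post-T 1 and 17 and 27 in Post-T 2, and a cluster drawn mostly from 1 library may be that library. A second yardstick was 1337 nuclei of all other named classes at the same depth.

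Hepatocyte transcripts were present in all 1822 nuclei. The hepatocyte list was carried by 100% of them, but also by 100% of the nuclei of the other named classes, so it did not separate the lineages. Alb, the gene of serum albumin (chr5:90460897-90476602, mm10, plus strand), was found in 98.6 to 100% of the nuclei per mouse against 96.8 to 100% of the other classes. Apob, which encodes the core protein of very low density lipoprotein, was found in 97.1% of the nuclei (99.9% before thinning) and in 90.6% of the other classes (93%). The gene of the hepatocyte regulator HNF4A (Hnf4a, chr2:163506808-163572910, plus strand) told more. It was found in 85.7, 85.4, 64.3, 68.0, 68.2 and 86.1% of the nuclei and in 80.0, 85.8, 71.6, 73.1, 82.3 and 90.4% of hepatocyte-like nuclei. The other classes gave 67.8, 69.3, 32.4, 45.8, 12.5 and 49.4%, lower than the nuclei in every mouse. Before thinning, Hnf4a was found in 95.9% of the nuclei, 92.0% of hepatocyte-like nuclei and 56.5% of the other classes.

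Counted over the 6 mice, endothelial markers were the most frequent addition, though in Post-T 1 erythroid markers were far more frequent (43.3%). The endothelial list (Stab2, Ptprb, Kdr, Flt1, Pecam1, Cdh5, Tek and Egfl7) was carried by 42.9, 32.7, 30.9, 52.3, 3.11 and 8.86% of the nuclei, 575 in all. Among hepatocyte-like nuclei of the same mice it was 6.18, 2.93, 4.87, 9.25, 5.20 and 2.14%. The nuclei lay above the hepatocyte-like nuclei in 5 of 6 mice, with Post-T 1 the exception, and both Post-T mice lay below the other 4 mice. Stab2, the hyaluronan scavenger receptor of sinusoidal endothelium (chr10:86841198-87008025, minus strand), was found in 39.8, 32.7, 41.6, 56.1, 10.7 and 7.59% of the nuclei, and before thinning in 55.1, 54.1, 68.6, 79.0, 36.0 and 17.7%. In hepatocyte-like nuclei Stab2 was found in 4.87 to 24.0% per mouse.

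Macrophage markers (Clec4f, Vsig4, Adgre1, Csf1r, Cd5l, Timd4, Marco and Mpeg1) were carried by 17.3, 12.3, 23.7, 40.2, 1.73 and 1.27% of the nuclei, 376 in all. The shares in hepatocyte-like nuclei were 0.741, 0.888, 4.33, 16.4, 3.09 and 0%. Again Post-T 1 alone had fewer among the nuclei than among hepatocyte-like nuclei, and Pre-T lay above Ctrl without overlap. Clec4f, a lectin found on Kupffer cells (chr6:83644542-83656187, minus strand), was found in 20.4, 11.4, 10.1, 23.8, 0.692 and 0% of the nuclei. The last value was 0 of 79 nuclei, which allows a share of up to 3.8% with a UMI of Clec4f at 5000 UMIs, not of nuclei that hold the transcript. Over the 6 mice Clec4f was found in 12.2% of the nuclei (24.5% before thinning) and 2.64% of hepatocyte-like nuclei (4.75%). Such intervals and limits cover counting error only.

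Stellate or fibroblast markers (Reln, Dcn, Col1a1, Col1a2, Col3a1, Pdgfrb, Lrat and Ecm1) were carried by 15.3, 17.3, 8.70, 16.6, 4.15 and 1.27% of the nuclei. In hepatocyte-like nuclei the shares were 4.94, 2.93, 2.03, 5.73, 3.38 and 0.877%, lower in each of the 6 mice. Combinations were common. In 265 nuclei both the endothelial and the macrophage list were carried, in 134 the endothelial and the stellate list, and in 62 all 3. At least 1 of the 3 lists was carried by 744 nuclei, 40.8% of the set, and per mouse by 52.0, 43.3, 41.0, 63.6, 8.30 and 11.4%.

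Lymphocyte markers were rarer but stood out from hepatocyte-like nuclei in the mice that had them. B cell markers were carried by 3.06, 8.19, 5.29, 5.84, 0 and 0% of the nuclei, against at most 0.147% of hepatocyte-like nuclei in any mouse. T cell markers were carried by 0, 2.63, 7.0, 8.88, 0 and 0%, against 0.0824 to 0.406%. At 5000 UMIs a count of 0 allows a share of up to 1.04% in the 289 nuclei of Post-T 1, 3.8% in the 79 of Post-T 2 and 3.06% in the 98 of Ctrl 1. Cholangiocyte markers were carried by 118 nuclei, conventional dendritic cell markers by 33, monocyte markers by 19 and neutrophil markers by 12. The NK cell and mesothelial lists were each carried by 2 nuclei, the plasmacytoid dendritic cell and the basophil or mast cell lists by 1 each, and the plasma cell list by 0.

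Haemoglobin transcripts behaved in the opposite way. Erythroid markers were carried by 8.16, 4.09, 18.8, 48.8, 43.3 and 2.53% of the nuclei and by 15.2, 5.33, 20.6, 61.1, 77.8 and 5.75% of hepatocyte-like nuclei, so the nuclei were lower in all 6 mice. Hbb-bs, a beta globin gene whose reads may be shared with its near copy Hbb-bt, was found in 13.3, 4.68, 21.7, 47.9, 38.8 and 2.53% of the nuclei and in 16.2, 4.44, 25.4, 62.0, 64.7 and 10.43% of hepatocyte-like nuclei, lower in 5 of 6 mice with Ctrl 2 the exception. Before thinning it was found in 40.8, 21.6, 61.4, 91.1, 92.4 and 29.1% of the nuclei and in 24.1, 7.10, 40.5, 80.9, 86.8 and 19.9% of hepatocyte-like nuclei.

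Counting any of the 15 further lists, 1024 nuclei (56.2%) carried a lineage besides the hepatocyte, at 58.2, 47.4, 52.6, 80.1, 49.8 and 12.7% per mouse. Hepatocyte-like nuclei gave 26.8, 13.1, 31.9, 71.5, 81.6 and 8.97%. Without the erythroid list, left out after its shares in hepatocyte-like nuclei were seen, the nuclei gave 55.1, 46.8, 46.9, 68.2, 12.8 and 11.4% and hepatocyte-like nuclei 15.1, 8.44, 16.9, 32.6, 15.9 and 3.61%. In both kinds of nuclei the share dropped most in Post-T 1, from 49.8 to 12.8% in the nuclei with 5000 or more genes and from 81.6 to 15.9% in hepatocyte-like nuclei.

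**Figure D2:**
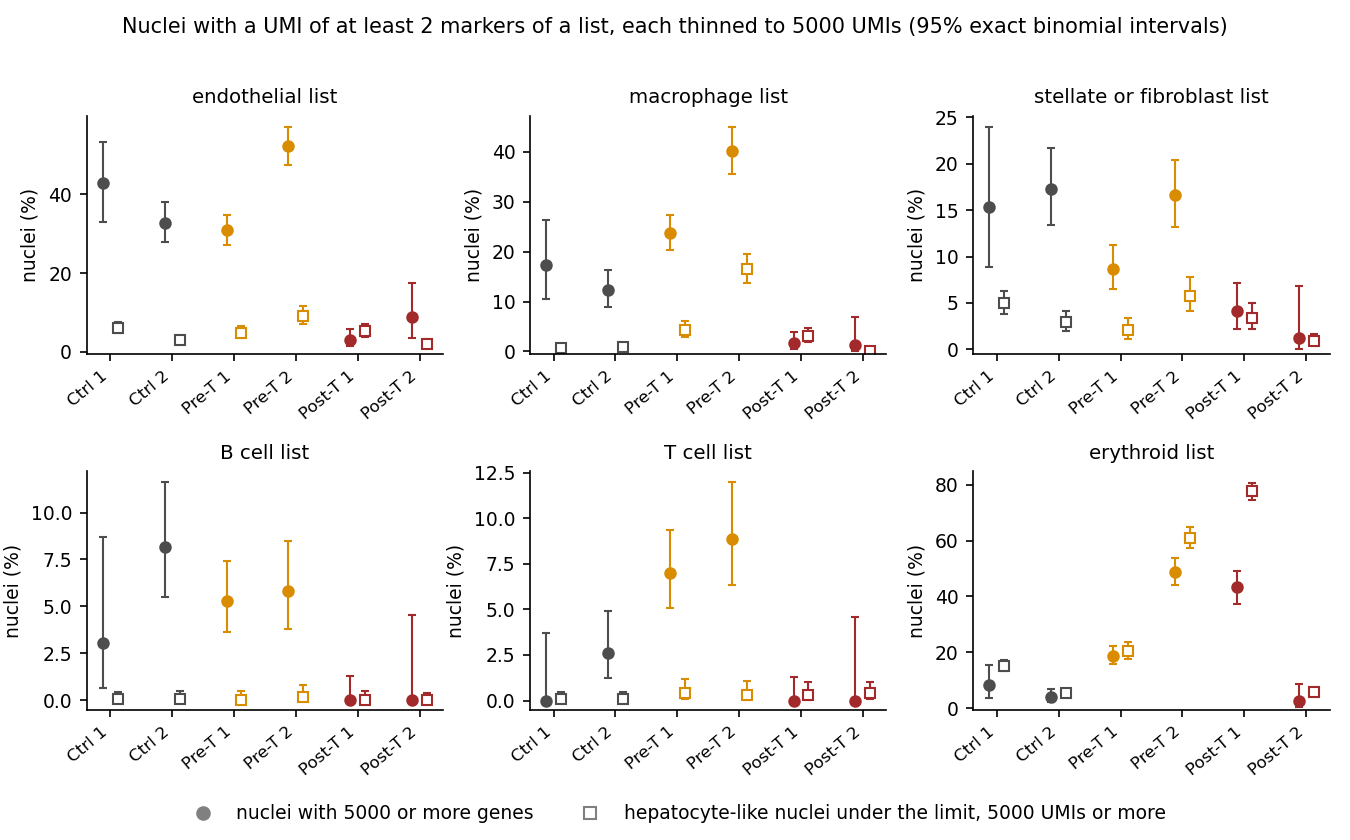
Percent of nuclei that carried each of 6 marker lists in each mouse after thinning to 5000 UMIs, for nuclei with 5000 or more genes (filled circles) and hepatocyte-like nuclei under the limit with at least 5000 UMIs (open squares), with exact 95% binomial intervals. The endothelial share of the nuclei runs from 30.9 to 52.3% in the Ctrl and Pre-T mice and is 3.11 and 8.86% in Post-T, whereas the erythroid share lies below that of hepatocyte-like nuclei in each mouse.

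Between groups the endothelial, macrophage and stellate shares of Post-T lay below those of Ctrl and Pre-T without reaching significance, which 2 against 2 mice cannot do. The share with any further lineage overlapped between Post-T and Ctrl (difference -21.5 percentage points, exact permutation test, p = 0.667). The erythroid share of Post-T 1, 43.3%, lay above both Ctrl mice. Without the erythroid list, left out after its shares were seen, the difference was -38.8 points with no overlap (exact permutation test, p = 0.333). The endothelial share of Ctrl averaged 37.8% ± 7.15 (SD, n = 2), that of Pre-T 41.6% ± 15.2 and that of Post-T 5.99% ± 4.06, and the macrophage share 14.8% ± 3.58, 32% ± 11.6 and 1.5% ± 0.328. The difference of Post-T from Ctrl was -31.8 percentage points for endothelial, -13.3 for macrophage and -13.6 for stellate markers, each without overlap and each with p = 0.333 in the exact permutation test. For Pre-T against Ctrl the differences were 3.81 points for endothelial markers (p = 1, exact permutation test), 17.1 for macrophage markers (p = 0.333, no overlap) and -3.63 for stellate markers (p = 0.667). Among the 28 such tests of shares the lowest p was 0.2 and the adjusted p (Benjamini-Hochberg) ran from 0.583 to 1.

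The share with a further lineage is given here by the number of genes detected, the value that chose the nuclei, as a description. Pooled over mice, a further list was carried by 44.4% of the 637 nuclei with 5000 to 5499 genes (exact 95% interval 40.5 to 48.4%), by 56.0% of the 425 with 6000 to 6999 genes and by 91.2% of the 125 with 8000 to 9999 genes. It was carried by all 49 nuclei with 10000 or more genes. Within single mice the share went from the bin of 5000 to 5999 genes to that of 7000 or more from 35.2 to 79.5% in Ctrl 2, from 40.3 to 84.0% in Pre-T 1 and from 70.7 to 95.3% in Pre-T 2. In Ctrl 1 it went from 54.2 to 76.9% with 13 nuclei in the top bin, and Post-T 2 had none there. In Post-T 1 it did not climb, at 53.4, 40.0 and 50.0% over the 3 bins with 8 nuclei in the last. Without the erythroid list Post-T 1 stood at 12.8% of its 289 nuclei and at 15.7% of its 83 with 6000 or more genes. The 1024 nuclei with a further lineage and the 798 without one had median UMIs of 23534 and 23352 and 6070 and 5576 genes. The order of the genes was the same in 4 mice and turned in Ctrl 1 (5697 with and 5787 without a further lineage) and Post-T 1 (5584.5 and 5613), where nuclei with a further lineage also had fewer UMIs, 22225 against 28715 and 24428 against 28001. In Post-T 2 they had more genes (5597.5 against 5307) with fewer UMIs (21722.5 against 24439). Of the 66 nuclei with 60000 or more UMIs, 62 carried a further lineage. Summed Hnf4a was 266 CPM in nuclei with a further lineage and 327 CPM in those without.

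**Figure D3:**
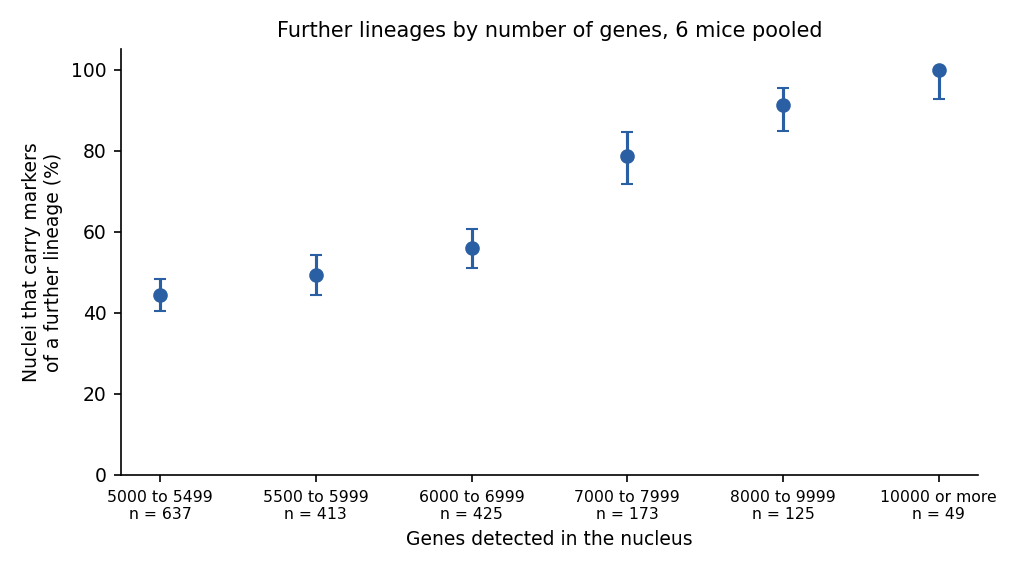
Percent of nuclei carrying the markers of a lineage besides the hepatocyte, in bins of the number of genes detected, over the 6 mice with exact 95% binomial intervals. Pooled over mice, the percentage climbs from 44.4% in the lowest bin to 100% in the 49 nuclei with 10000 or more genes, which came from 4 mice.

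Each nucleus was also matched to the cluster of nuclei under the limit whose summed profile gave its thinned counts the highest likelihood. A hepatocyte-like cluster was the closest for 81.6, 85.4, 58.5, 59.3, 72.7 and 100% of the nuclei, 1258 in all. An endothelial-like cluster was the closest for 13.3, 12.9, 5.97, 17.1, 0.346 and 0%. Of these 166 nuclei 165 were closest to cluster 1, which had a mixed profile. In it 7 of 8 endothelial markers were raised, and 6 to 8 of 8 hepatocyte markers in each Ctrl and Pre-T mouse. Macrophage-like clusters took 25 nuclei, all from Pre-T mice, stellate-like clusters 18 and cholangiocyte-like clusters 12. Another 343 nuclei were closest to unnamed clusters, and these were not the same in each mouse. Cluster 26, led by Ttn, Apcdd1 and Mybpc1 and made of Pre-T 1 and Post-T 1 nuclei but for 1, took 17.1% of the Pre-T 1 nuclei and 26% of the Post-T 1 nuclei. Hnf4a was found in 46.8% of its own nuclei at 5000 UMIs. Cluster 18, in which 8 of 8 endothelial and 7 of 8 macrophage markers were raised together, took 9.73% of Pre-T 1 and 16.8% of Pre-T 2. Cluster 19, led by Kel and Top2a, took 25 nuclei of Pre-T 1.

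**Figure D4:**
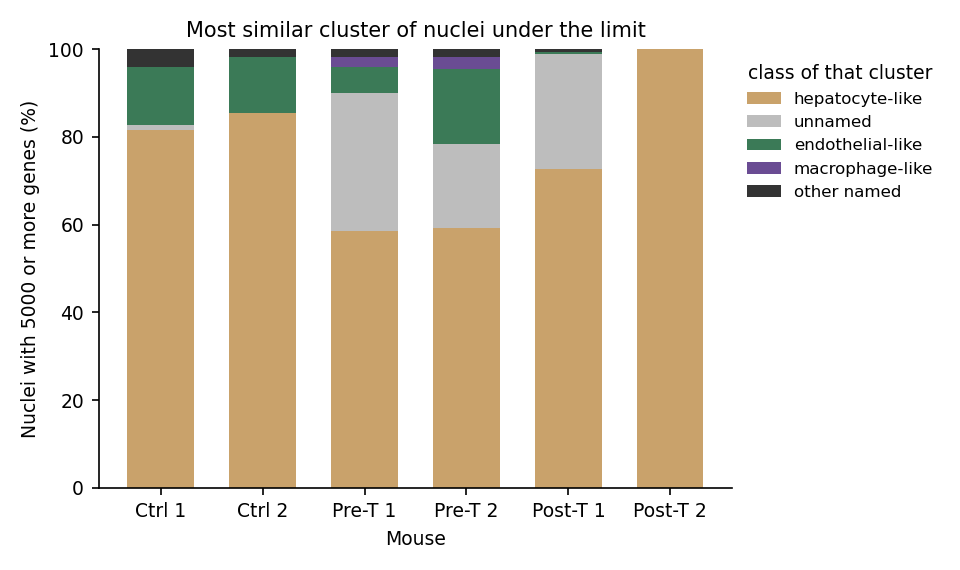
Class of the most similar cluster under the limit for the nuclei with 5000 or more genes, as a stacked percentage per mouse. Hepatocyte-like clusters are the closest for 58.5 to 100% of the nuclei of a mouse, and unnamed clusters take 31.4, 19.2 and 26.3% in Pre-T 1, Pre-T 2 and Post-T 1 and at most 1.02% in the others.

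Summed profiles were then compared gene by gene. For each mouse the CPM of the nuclei was set against that of all its hepatocyte-like nuclei under the limit as a log2 ratio with 1 CPM added, and the median over the 6 mice and its range are given. Of 6952 genes with a mean of at least 20 CPM, 1077 (15.5%) were higher in all 6 mice and 605 (8.7%) lower in all 6, and the median gene stood at 0.04. Dab2, an endocytic adaptor named here after its values were seen, was the only 1 more than 2-fold higher in every mouse (0.0144%), and 0 genes were more than 2-fold lower. Genes over 2-fold higher in every mouse numbered 14 against hepatocyte-like nuclei with at least 5000 UMIs, and 0 with TMM factors (the scaling of edgeR), without nuclei carrying a further lineage or in nuclei closest to a hepatocyte-like cluster. Dab2 measured 66.2, 47.2, 56.7, 92.7, 46.5 and 8.50 CPM in the nuclei and 16.5, 8.44, 3.90, 5.76, 22.1 and 3.42 CPM in hepatocyte-like nuclei. Post-T 2 was the lowest in both.

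Hepatocyte products took a smaller part of the UMIs of the nuclei. The 8 hepatocyte markers had a median log2 ratio of -0.46, and 6 of 8 were lower in all 6 mice. All 14 genes of the plasma protein list were lower in every mouse, with a median of -0.51. Alb measured 5548, 5106, 2204, 2835, 2244 and 4942 CPM against 9501, 7938, 3441, 5508, 4736 and 6924 CPM in hepatocyte-like nuclei, lower in every mouse. The regulator Hnf4a differed less, at 362, 415, 224, 243, 271 and 424 CPM against 347, 432, 279, 281, 363 and 439 CPM, with a median of -0.13 and both signs. Liver transcription factors as a list stood at -0.08. Malat1, a long noncoding RNA retained in the nucleus, was higher in each mouse with a median of 0.17. Neat1, the other of the 2 nuclear RNAs listed, was lower in both Pre-T mice. The median of the 2 was 0.24, 0.09, -0.01, -0.04, 0.17 and 0.09.

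The endothelial list was the most raised, with a median log2 ratio of 2.06 over the mice and 1.82, 2.30, 2.84, 3.01, -0.73 and 0.04 in single mice. The macrophage list stood at 1.65, with 1.86, 1.97, 2.34, 1.43, -1.26 and -0.36. In both lists the Ctrl and Pre-T mice were well above 0, and the Post-T mice near or below it. Without nuclei that carried a further lineage, a choice made on such markers, the medians turned to -0.90 for the endothelial, -0.90 for the macrophage and -0.82 for the stellate list. Summed over its 8 genes, the endothelial list took 724, 617, 781, 1212, 89.3 and 150.1 CPM of the nuclei and 112 to 157 CPM of hepatocyte-like nuclei. Stab2 alone measured 321, 225, 288, 428, 28.2 and 67.0 CPM, against 52.1, 37.1, 65.6, 53.9, 50.9 and 25 CPM. Stellate markers had a median of 0.46, B cell markers 1.09 and erythroid markers -0.98. The stellate and B cell lists were above 0 in the Ctrl and Pre-T mice. In Post-T 1 and 2 they stood at -0.71 and 0.12 (stellate) and at -0.47 and -0.01 (B cell). The erythroid list was below 0 in every mouse.

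Beyond the lists, genes were ranked if their ratio had 1 sign in all 6 mice and their mean was at least 20 CPM. Among them the highest median ratios belonged to Stox2 (2.96, range 0.24 to 4.35, chr8:47180048-47446362, minus strand), Galnt18 (2.67), Plekhg1 (2.63), Rbms3 (2.58) and Lhfp (2.57). Stox2 measured 109.9, 86.2, 70.2, 135, 8.12 and 16.5 CPM against 17.4, 7.69, 4.13, 5.63, 6.73 and 10.9 CPM, so its Post-T values were near those of hepatocyte-like nuclei. In the other named classes Stox2 was higher in every mouse, at 450, 416, 228, 307, 336 and 715 CPM. The lowest ratios belonged to Hbb-bt (-1.52), Hbb-bs (-1.34), Cmss1 (-1.12) and the serine protease inhibitor Serpina3k (-1.09). The globin pair and Serpina3k belong to families of near copies whose counts are uncertain. Gm42418 (-1.03) and AY036118 (-1.02) overlap a ribosomal RNA repeat.

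The UMIs of the nuclei were then summed per mouse (1998889 to 15346340) and the groups compared over 19008 genes with edgeR's quasi-likelihood test, called at an adjusted p (Benjamini-Hochberg) under 0.05. In such sums, fewer nuclei with the RNA of a lineage and less of that RNA per nucleus cannot be told apart. The 3 comparisons share mice. Pre-T against Ctrl gave 346 genes (1.82%), 201 higher (1.06%) and 145 lower (0.763%). Post-T against Ctrl gave 1580 (8.31%), 507 higher and 1073 lower, and Post-T against Pre-T gave 2347 (12.3%), 593 higher and 1754 lower. The median log2 fold change of all genes was 0.14, -0.03 and -0.15. The counts moved when single mice were left out. A group is then 1 mouse, here and in all such fits below, and is assumed to vary like the other groups, so a lost call need not be a smaller change. Pre-T against Ctrl fell to 0 genes without Ctrl 1, Ctrl 2 or Pre-T 1 (2567, 2529 and 1932 genes at an unadjusted p under 0.05) and to 42 without Pre-T 2, and was 1895 and 1885 without Post-T 1 or Post-T 2. Post-T against Ctrl fell to 7 without Ctrl 1, 35 without Ctrl 2, 1013 without Pre-T 1 and 1047 without Pre-T 2, and was 2635 without Post-T 2. Post-T against Pre-T fell to 1038, 979, 936 and 363 genes without Ctrl 1, Ctrl 2, Pre-T 1 and Pre-T 2. DESeq2 called 1378, 2688 and 3216 genes in the 3 comparisons.

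Endothelial transcripts fell in the Post-T nuclei. Of the 8 endothelial markers, 6 were lower in Post-T than in Ctrl (5.64% of all genes were called lower), with a list median of -2.48, and all 8 were lower than in Pre-T (9.23% of all genes), with a median of -2.52. Between Pre-T and Ctrl edgeR called 0 of 8 (1 at an unadjusted p under 0.05, and 1 called by DESeq2), and the median was 0.28. Ptprb, a receptor phosphatase of vascular endothelium (chr10:116275523-116389535, plus strand), measured 189.7, 195, 202, 334, 16.5 and 30 CPM. Both Post-T mice lay below the other 4, and the log2 fold change of Post-T against Ctrl was -3.02 ± 0.41 (SE, adjusted p = 0.0127). Tek, the angiopoietin receptor (chr4:94739289-94874976, plus strand), measured 39.0, 36.8, 33.8, 60, 2.62 and 3.0 CPM and fell by 3.74 ± 0.40 against Ctrl (adjusted p = 0.00814). Stab2, with the CPM given above, fell by 2.47 ± 0.49 (adjusted p = 0.0293). Pecam1 (-1.15, adjusted p = 0.0751) and Cdh5 (-1.85, adjusted p = 0.0861) did not pass against Ctrl. Without Ctrl 1 or without Ctrl 2, 0 of the 8 passed against Ctrl, with medians of -2.24 and -2.62. Against Pre-T 5 passed without either Ctrl mouse, 6 and 4 without Pre-T 1 and Pre-T 2, and 6 without Post-T 1. When nuclei that carried a further lineage were left out, a choice that removes such transcripts by its own construction, 0 passed in either comparison (medians -1.15 and -0.79).

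Kupffer cell transcripts fell with them. Post-T was lower than Ctrl in 4 of 8 macrophage markers (5.64% of all genes; median -2.13) and lower than Pre-T in 7 of 8 (9.23% of all genes; median -3.83, all but Marco), while Pre-T was higher than Ctrl in 2 of 8 (median 1.39, with 1.06% of all genes called higher). Clec4f measured 45.1, 43.7, 46.5, 80.6, 1.87 and 0 CPM, and Post-T fell by 5.0 ± 0.65 against Ctrl (adjusted p = 0.0120). Vsig4, a complement receptor of Kupffer cells, measured 22.7, 20.2, 44.9, 80.1, 1.62 and 0.50 CPM and fell by 3.98 ± 0.50 (adjusted p = 0.0110). In both genes the 2 Post-T mice were far below the others. Cd5l, a macrophage protein that binds apoptotic cells and lipids (chr3:87357881-87371073, plus strand), measured 51.2, 42.9, 172, 224, 9.86 and 7.0 CPM. The 3 groups did not overlap, with Cd5l higher in Pre-T than in Ctrl by 1.74 ± 0.27 (adjusted p = 0.0363) and lower in Post-T than in Ctrl (-2.39 ± 0.30, adjusted p = 0.0108). Mpeg1 also rose in Pre-T (3.01 ± 0.48, adjusted p = 0.0366), as did the monocyte chemokine receptor Ccr2 (5.35 ± 0.77, adjusted p = 0.0321). Without Ctrl 1 or Ctrl 2 the 4 calls of Post-T against Ctrl went to 0 (medians -1.97 and -2.30), and without Post-T 1 there were 6. The 7 calls against Pre-T went to 6 without any 1 of the Ctrl or Pre-T mice. When nuclei carrying a further lineage were left out, which removes such transcripts by its own construction, 0 passed in either comparison.

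Among stellate markers 2 of 8 fell from Ctrl to Post-T (median -1.86), where 5.64% of all genes were called lower and 2.67% higher. Reln, which quiescent stellate cells and lymphatic endothelium express, measured 197, 166, 77.0, 88.3, 66.3 and 30 CPM and fell by 1.85 ± 0.37 (adjusted p = 0.0293), and Pdgfrb fell by 3.69 ± 0.56 (adjusted p = 0.0157). The Western-diet mice all lay below both Ctrl mice in Reln. Of 6 B cell markers 3 fell (median -3.22). Bank1, a B cell scaffold protein (chr3:136053363-136326066, minus strand), measured 59.4, 58.7, 128, 189, 5.49 and 10.5 CPM and fell by 2.92 ± 0.40 (adjusted p = 0.0127). Pax5 had 2 counts in the Post-T sums, a ratio of 30.4 below Ctrl with a counting interval of 8.15 to 255. Of 7 T cell markers Skap1 fell and Themis rose. Themis, a T cell development gene, measured 2.37, 18.2, 129, 92.2, 152 and 189 CPM (4.01 ± 0.74, adjusted p = 0.0248), although no Post-T nucleus carried the T cell list. All 7 T cell markers summed to 154 and 190 CPM in these Post-T nuclei, nearly all of it Themis. In Post-T hepatocyte-like nuclei the 7 summed to 146 and 111 CPM, against 9.65 and 17.2 CPM in those of Ctrl. The other named classes of Post-T held only 25.8 and 31.8 CPM.

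Alas2 was the 1 of 5 erythroid genes called, lower than in Ctrl in Pre-T (0.763% of all genes) and in Post-T (5.64%), while the median of its list was 2.17 and 2.13. Cholangiocyte markers gave 0 calls in the 3 comparisons by edgeR or DESeq2 (0, 1 and 0 of 7 at an unadjusted p under 0.05; medians -0.26, -1.12 and -0.48).

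Hepatocyte zonation genes separated Post-T from Ctrl. Liver lobules divide labor along the blood flow, with ammonia detoxification through urea and amino acid breakdown near the portal vein and glutamine synthesis by a few cells around the central vein. Of 10 periportal genes 8 fell in Post-T against Ctrl (5.64% of all genes), with a list median of -5.11, and 7 fell against Pre-T (9.23% of all genes; median -3.90). Cyp2f2, a periportal cytochrome (chr7:27119909-27133660, plus strand), measured 247, 187, 49.3, 74.5, 1.5 and 0.50 CPM. The 3 groups did not overlap, and the changes were -2.14 ± 0.35 from Ctrl to Pre-T (adjusted p = 0.0372, the 1 periportal call there) and -7.42 ± 0.49 from Ctrl to Post-T (adjusted p = 0.00418). Hal, histidine ammonia lyase (chr10:93488768-93519304, plus strand), measured 1034, 680.4, 76.0, 126, 3.25 and 0 CPM and fell by 8.56 ± 0.85 in Post-T (adjusted p = 0.00694). As for Cyp2f2, the order of the groups was Ctrl, Pre-T, Post-T with no overlap. Glutaminase Gls2 fell by 5.72 ± 0.77 (adjusted p = 0.0125). Ass1, the urea cycle's argininosuccinate synthase, measured 944, 763, 200.1, 359, 523 and 325 CPM and did not pass against Ctrl (-0.96 ± 0.38, adjusted p = 0.151).

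Pericentral genes went the other way. Of 10 pericentral genes 4 rose in Post-T against Ctrl (2.67% of all genes were called higher), with a list median of 2.30, and 2 rose against Pre-T (3.12% of all genes; median 2.27). Glutamine synthetase, Glul (chr1:153899944-153909723, plus strand), measured 47.5, 106, 1021, 270.2, 1623 and 4438 CPM and rose by 5.37 ± 0.89 (adjusted p = 0.0194). Rhbg, an ammonium transporter, measured 1.36, 1.16, 16.4, 3.65, 56.2 and 79.5 CPM and rose by 5.85 ± 0.81 (adjusted p = 0.0127). Axin2, a target and inhibitor of Wnt signaling, measured 8.48, 17.7, 82.7, 18.4, 196 and 123 CPM and rose by 3.62 ± 0.73 (adjusted p = 0.0314). Both Post-T mice were the highest in each of these, and Pre-T 1 lay well above Pre-T 2. Gulo rose by 2.32 ± 0.43 (adjusted p = 0.0254). The glutamate transporter Slc1a2 (chr2:102658659-102790784, plus strand) measured 74.3, 285, 941, 90.8, 3246 and 5564 CPM, with a log2 fold change of 4.69 ± 1.18 that did not pass (adjusted p = 0.0547).

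Leaving out a Ctrl mouse lost most zonal calls while the list medians kept their sign. Without Ctrl 1 or without Ctrl 2 there was 1 periportal call of Post-T against Ctrl, with medians of -4.64 and -5.24, and 0 pericentral calls, with medians of 1.97 and 3.16. In nuclei that carried no further lineage 5 periportal (median -4.90) and 3 pericentral genes (median 1.79) were called against Ctrl. Against Pre-T there were 4, 4, 5 and 3 periportal calls without Ctrl 1, Ctrl 2, Pre-T 1 and Pre-T 2, and 2 in nuclei without a further lineage.

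Genes of mitosis were raised in Pre-T. Of 19 genes of the G2 and M phases 7 rose against Ctrl (Mki67, Top2a, Cenpe, Cenpf, Kif15, Tpx2 and Ect2), with a median of 3.16, and 1.06% of all genes were called higher there. Top2a, the topoisomerase that untangles replicated chromosomes (chr11:98992943-99024189, minus strand), measured 0.339, 0.963, 54.8, 26.2, 6.62 and 11.5 CPM, a rise of 5.34 ± 0.63 in Pre-T (adjusted p = 0.0269) and 3.50 ± 0.65 in Post-T (adjusted p = 0.0254). Mki67, the proliferation marker Ki-67 (chr7:135689784-135716361, minus strand), measured 0.339, 0.674, 20.5, 15.1, 6.87 and 6.00 CPM and rose by 4.58 ± 0.46 (adjusted p = 0.0249) and 3.52 ± 0.48 (adjusted p = 0.0127). Ctrl was lowest and Pre-T highest in both, with no overlap. Post-T was lower than Pre-T in 3 of 19 (Tpx2, Anln and Knl1), against 9.23% of all genes. Of 14 S phase genes edgeR called 0 in Pre-T and 0 in Post-T against Ctrl (2 each at an unadjusted p under 0.05, and 1 each called by DESeq2), with medians of 0.84 and 0.52. The 8 genes of the p53 target and polyploidy list gave 0 calls in any comparison by edgeR (2, 1 and 2 at an unadjusted p under 0.05). DESeq2 called 1 in Pre-T against Ctrl, 1 in Post-T against Ctrl and 0 in Post-T against Pre-T. The 7 mitotic calls went to 0 without Ctrl 1, Ctrl 2 or Pre-T 1 and to 2 without Pre-T 2, and there were 11 without either Post-T mouse. In nuclei with no further lineage 0 passed, and in nuclei closest to a hepatocyte-like cluster 1 passed. The 19 genes summed to 269 CPM in Pre-T 1 and 152 in Pre-T 2. In nuclei with no further lineage they summed to 236 and 30.4 CPM. Pre-T 2 was then near its hepatocyte-like nuclei (37.0 CPM). Pre-T 1, which had the 25 nuclei closest to cluster 19, was not (44.4 CPM). Cluster 19 was unnamed and so not part of the hepatocyte-like nuclei.

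Lipid genes moved in both directions. Of 19 genes of lipid droplets and lipogenesis 3 rose and 3 fell from Ctrl to Post-T, against 2.67% of all genes called higher and 5.64% lower. Cidec, which drives the fusion of lipid droplets, measured 4.41, 10.6, 69.9, 47.4, 61.8 and 30 CPM and rose by 2.60 ± 0.49 (adjusted p = 0.0266), and the acyltransferase Mogat1 and the nuclear receptor Pparg rose with it by 2.19 ± 0.39 (adjusted p = 0.0227) and 1.74 ± 0.37 (adjusted p = 0.0368). Plin2, a coat protein of lipid droplets, measured 312, 222, 349.9, 278, 87.4 and 73.5 CPM and fell by 1.68 ± 0.28 (adjusted p = 0.0202). Both Post-T mice were below all others in Plin2. The fatty acid synthesis enzymes Fasn (-2.32 ± 0.53, adjusted p = 0.0429) and Acly (-2.35 ± 0.45, adjusted p = 0.0277) also fell. In Pre-T Mogat1 (3.37 ± 0.38, adjusted p = 0.0269) and Fabp4 (2.61 ± 0.42, adjusted p = 0.0372) rose, with 1.06% of all genes called higher there. Of 10 bile acid genes 4 fell from Ctrl to Post-T (median -1.23). Cyp8b1, the enzyme that sets the cholic acid share, measured 90.2, 52.7, 17.9, 26.1, 0.749 and 0 CPM and fell by 6.91 ± 0.64 (adjusted p = 0.00660), and the bile acid importer Slc10a1 fell by 3.28 ± 0.55 (adjusted p = 0.0197).

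Plasma protein and hepatocyte identity genes gave few calls, at shares to be read against the 5.64% of all genes called lower in Post-T than in Ctrl. Of 14 plasma protein genes 2 fell from Ctrl to Post-T (Apoc3 and Fgg), and of the 8 hepatocyte markers only Cps1, the entry enzyme of the urea cycle, fell (-1.75 ± 0.36, adjusted p = 0.0316). In Pre-T the hepatocyte markers had a median of -1.29 with 0 of 8 called by edgeR, although 6 had an unadjusted p under 0.05 and DESeq2 called 5. Of 16 liver transcription factors Cebpa alone fell against Ctrl (-1.68 ± 0.38, adjusted p = 0.0409), a share near that of all genes, and Foxa3, Ppara and Rxra were higher in Post-T than in Pre-T (3.12% of all genes). Foxa3 measured 62.1, 66.7, 40.7, 48.0, 99.9 and 158 CPM (1.94 ± 0.31, adjusted p = 0.0130), with no overlap between the groups. Of 13 acute phase and stress genes 1 rose and 1 fell in Pre-T against Ctrl, and 1 rose and 2 fell in Post-T, against 1.06 and 0.763% of all genes called higher and lower in Pre-T and 2.67 and 5.64% in Post-T. The immediate early gene Egr1 measured 164, 273, 14.9, 25, 33.0 and 24.5 CPM and was lower in all 4 Western-diet mice (Pre-T -3.79 ± 0.40, adjusted p = 0.0249; Post-T -2.86 ± 0.39, adjusted p = 0.0125). Among 12 tested liver tumor markers the 1 call by edgeR was Cd44, higher in Pre-T than in Ctrl (2.53 ± 0.43, adjusted p = 0.0417), like 1.06% of all genes. It measured 18.7, 11.8, 95.4, 123, 39.2 and 17.0 CPM. In Post-T edgeR called 0 of the 12 against Ctrl and 0 against Pre-T, although 2 and 4 had an unadjusted p under 0.05. DESeq2 called 2 and 3 in these comparisons.

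**Figure D5:**
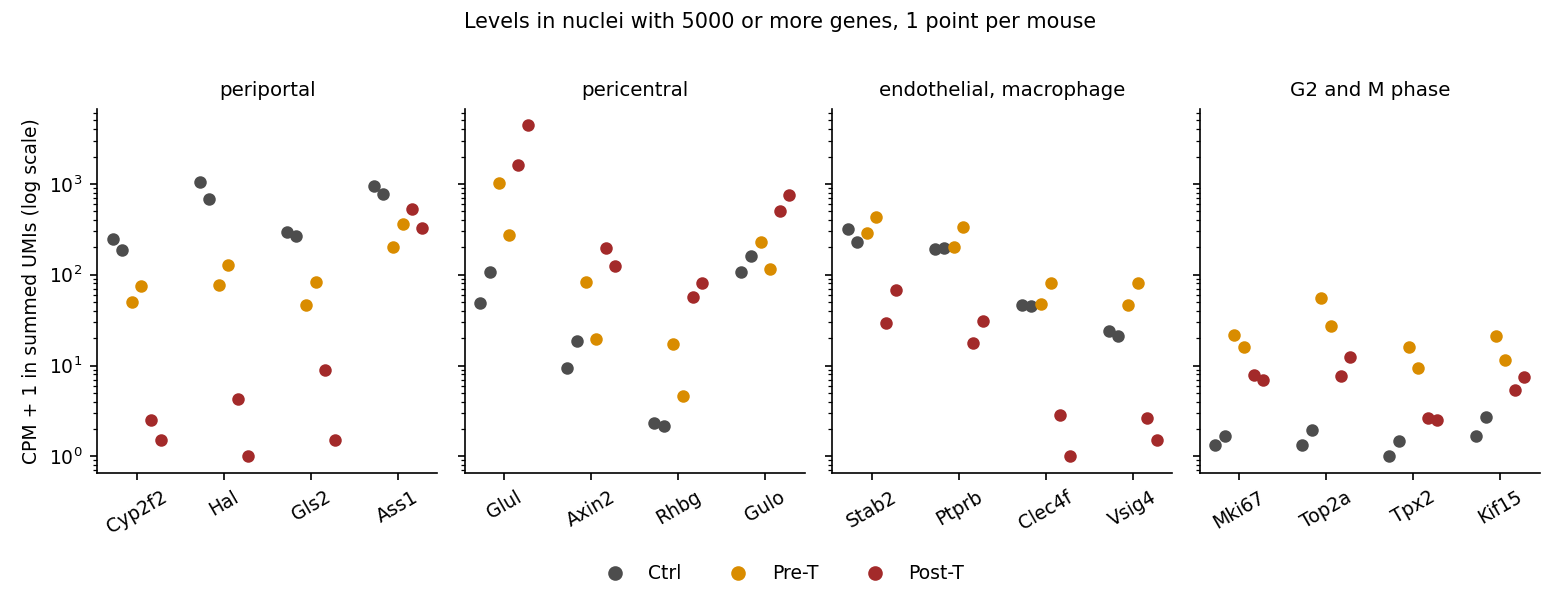
Levels per mouse in summed nuclei with 5000 or more genes, in CPM plus 1 on a log axis, for periportal, pericentral, endothelial or macrophage and G2 and M phase genes, with Ctrl in grey, Pre-T in orange and Post-T in red. Cyp2f2 falls from 247 and 187 CPM in Ctrl to 1.5 and 0.50 CPM in Post-T, Glul rises from 47.5 and 106 to 1623 and 4438 CPM, and Mki67 is highest in Pre-T.

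Beyond the lists, genes were taken by the size of change among those that passed without overlap between the groups at a mean of at least 20 CPM, and several of the largest changes were in noncoding RNAs. Hamp, which encodes the iron hormone hepcidin (chr7:30942368-30944032, minus strand), measured 992, 2208, 258, 431, 0.125 and 0 CPM. Its Post-T sums held 1 count, a ratio of 19406 below Ctrl with a counting interval of 3483 to 766542 (edgeR, adjusted p = 0.00418). The urinary protein gene Mup11, a member of a family of near copies with uncertain counts, had 0 counts in Post-T and was at least 201-fold lower than in Ctrl against a floor of 3 counts over the group. Hsd3b5, a male-biased steroid reductase, measured 89.6, 81.2, 0.195, 0.162, 0 and 1.00 CPM and fell by 9.10 ± 0.71 in Pre-T (adjusted p = 0.0248). Etnppl, a lyase of phosphoethanolamine, measured 653, 574, 16.6, 26.4, 12.1 and 1.00 CPM and fell by 5.17 ± 0.75 in Pre-T (adjusted p = 0.0321). Every Western-diet mouse was below both Ctrl mice in these genes, least so in Hamp, where Pre-T 2 stood at 431 and Ctrl 1 at 992 CPM.

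Lcn2, an iron-binding acute phase protein (chr2:32384633-32388252, minus strand), went in the other direction at 0.679, 0.0963, 33.0, 56.8, 49.7 and 46.0 CPM. With 3 counts in Ctrl its ratio was 194 in Pre-T (counting interval 66.2 to 941) and 218 in Post-T (74.0 to 1059). Prostaglandin E synthase, Ptges, measured 0, 0.385, 118, 70.6, 37.8 and 1.5 CPM (Pre-T 7.96 ± 1.44, adjusted p = 0.0473). It was high in both Pre-T mice and split in Post-T. Apoa4 measured 2.37, 2.02, 100.3, 87.0, 84.3 and 708 CPM, and the Wnt effector Lef1 0, 5.01, 66.1, 6.33, 514 and 214 CPM, higher in Post-T than in Ctrl by 7.61 ± 1.13 (adjusted p = 0.0151) and 6.91 ± 1.44 (adjusted p = 0.0340). The Wnt inhibitor Wif1 measured 0.679, 0.0963, 3.0, 0.324, 13.2 and 171 CPM, a ratio of 199 to Ctrl (67.6 to 968) that came mostly from Post-T 2. The same held for the maternally expressed noncoding RNA Meg3 (chr12:109541001-109571726, plus strand), at 52.2, 69.1, 2.80, 12, 173 and 2756 CPM (Post-T against Pre-T 8.06 ± 1.52, adjusted p = 0.0211), and for its neighbor Rian (8.20 ± 1.43, adjusted p = 0.0165).

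A final comparison asked whether the difference between these nuclei and hepatocyte-like nuclei of the same mouse changed with the group, by an interaction term in edgeR's test on 12 sums with the mouse as a block (20605 genes). From Ctrl to Pre-T 567 genes passed (2.75%), from Ctrl to Post-T 1114 (5.41%) and from Pre-T to Post-T 2237 (10.9%). DESeq2 called 148, 513 and 1198, and against hepatocyte-like nuclei with at least 5000 UMIs edgeR called 258, 581 and 1207. For endothelial markers the excess over hepatocyte-like nuclei was smaller in Post-T than in Ctrl for 8 of 8 genes (median -2.66) and smaller than in Pre-T for 8 of 8 (median -3.72), and larger in Pre-T than in Ctrl for 5 of 8 (median 1.01). Macrophage markers passed in 7 of 8 against Ctrl (median -3.21) and 7 of 8 against Pre-T (median -3.0), stellate markers in 4 of 8 in each (medians -1.27 and -1.47) and B cell markers in 3 of 6 in each (medians -2.79 and -3.95). Erythroid markers passed in 3 of 5 (median -1.21) and 4 of 5 (median -1.95), and monocyte markers in 1 of 5 (median -2.13) and 3 of 5 (median -4.15), each of them negative. Mitotic genes had a larger excess in Pre-T than in Ctrl for 6 of 19 (median 1.86). For 11 of 19 the excess was smaller in Post-T than in Pre-T (median -2.41). Cluster 19, led by Kel and Top2a, was unnamed and so outside the hepatocyte-like sums. The nuclei of the set closest to it, 25 in Pre-T 1 and 2 in Pre-T 2, stayed in. The part of cluster 19 in the mitotic excess was not tested.

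Zonal genes gave few calls here. Of the 10 periportal genes 0 passed between Ctrl and Post-T by edgeR or DESeq2 (1 at an unadjusted p under 0.05), with a median interaction of 0.09, and of the 10 pericentral genes Glul passed (1.12) with a list median of 0.05. The hepatocyte list gave 0 calls of 8 in that comparison by either tool (2 at an unadjusted p under 0.05; median -0.12). A gene that did not pass is not shown to have moved alike in both kinds of nuclei.

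Leaving out single mice moved the interaction counts to 198, 334 and 299 from Ctrl to Pre-T without Ctrl 1, Ctrl 2 and Pre-T 1. From Ctrl to Post-T they were 465 once Ctrl 2 was left out, and 223 and 1878 without the first and the second Post-T mouse, and from Pre-T to Post-T to 1432 without Pre-T 2 and 716 without Post-T 1. The endothelial calls against Post-T held, with 6 to 8 of 8 from Ctrl and 8 of 8 from Pre-T in every such fit. The endothelial calls from Ctrl to Pre-T went to 0 without Ctrl 1 or Pre-T 1. Without Post-T 1 the macrophage calls went to 0 from Ctrl (median -2.50) and 1 from Pre-T (median -2.56), and the 11 mitotic calls to 0. Without Pre-T 1 those mitotic calls were 5, and the 6 mitotic calls from Ctrl to Pre-T went to 1 or 2 without Ctrl 1, Ctrl 2, Pre-T 1 or Post-T 1.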

How the data were processed

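The authors aligned the reads to mm10 with Cell Ranger 6.1.1 and deposited, per library, raw UMI counts of genes per called barcode, with no normalization. Whether intronic reads were counted is not given in the sources used here. Members and gene lists were chosen with earlier results of these data known. Genes detected and mitochondrial UMIs were counted per barcode, and the study's upper limit of 5000 genes was turned around.

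Nuclei under the limit with over 200 genes (39012) were clustered with scanpy 1.11.5 (30 principal components of 2000 variable genes, 15 neighbours, leidenalg 0.10.2, resolution 1, seed 1, Python 3.11.15) without integration. A cluster was called X-like from at least 3 raised markers of 1 list only. Hepatocyte-like clusters were named within each mouse at 1.25-fold or more over clusters of other classes, a fold set after values were seen. They had fewer than 3 raised markers of every other list and none among their leading genes. Clusters that met no rule stayed unnamed. Thinning drew UMIs without replacement. Summed counts were tested with edgeR 4.0.16 under R 4.3.3 (TMM, quasi-likelihood test, 6 mice in 1 fit, 3 residual degrees of freedom, at least 10 counts over the sums), and DESeq2 1.42.0 was an alternative. Exact permutation tests over mice compared the shares. P-values measure the spread between mice, 2 a group.

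Named genes are those of the lists and, per comparison, up to 10 in each direction (5 per interaction term) that passed the test, averaged at least 20 CPM and, between groups, did not overlap, by size of change. The text names a part of them, and some genes are not reported here. Coordinates are mm10 positions of GENCODE genes. Alternatives covered the tool, the scaling, the low-count filter, the gene limit, the markers required, the nuclei included and each mouse left out.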

Additional observations from a re-analysis of the deposited data

Results flagged for a closer look

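The difference between nuclei with 5000 or more genes and hepatocyte-like nuclei of the same mouse was tested for a change with the group (interaction term, edgeR's quasi-likelihood test), and 567 genes passed from Ctrl to Pre-T, 1114 from Ctrl to Post-T and 2237 from Pre-T to Post-T. Genes are named by the size of that term on the log2 scale, and 6 values in a row belong to Ctrl 1 and 2, then to Pre-T 1 and 2, then to Post-T 1 and 2.

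From Ctrl to Pre-T, 4 of the 5 named genes were high in Pre-T 1 and not in Pre-T 2. Cluster 26, with 875 nuclei of Pre-T 1, 0 of Pre-T 2 and 662 of Post-T 1, was unnamed. It was thus outside the hepatocyte-like sums, whereas 100 nuclei of the set in Pre-T 1 and 75 in Post-T 1 were closest to it. The part of cluster 26 in these terms was not tested. Plat, tissue plasminogen activator, had a term of 7.16, with 0, 0, 188, 1.22, 98.6 and 71.5 CPM in the nuclei and 0.180, 0.187, 20.7, 0.490, 44.0 and 42.8 CPM in hepatocyte-like nuclei. Because its nuclei stood at 0 CPM in both Ctrl mice, this term has no exact size and its place in the order is uncertain. As in Plat, Mdga2 (4.29), Adamts17 (3.34) and Atp10a (3.16) were high in Pre-T 1 and not in Pre-T 2. Without Pre-T 1 their terms were 5.08 for Plat, -0.15 for Mdga2, 0.13 for Adamts17 and 1.69 for Atp10a, and none passed, with Pre-T then 1 mouse. Mapt (-3.07), the gene of the microtubule protein tau, measured 29.5, 31.2, 69.3, 78.9, 66.8 and 1.5 CPM in the nuclei and 4.37, 4.94, 100.4, 93.1, 68.3 and 1.5 CPM in hepatocyte-like nuclei, so its excess was seen in Ctrl only.

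From Ctrl to Post-T the largest terms were negative, for Gatm (-4.45), Vcam1 (-4.11), Vsig4 (-4.04) and Arhgap45 (-3.70). Gatm, which makes the precursor of creatine (chr2:122594467-122611303, minus strand), measured 26.5, 25.5, 28.3, 43.1, 0.624 and 0.50 CPM in the nuclei and 7.07, 4.81, 3.90, 6.25, 3.70 and 1.21 CPM in hepatocyte-like nuclei. Vcam1, an adhesion molecule of endothelium and Kupffer cells, measured 8.14, 10.2, 48.4, 69.2, 1.62 and 3.50 CPM against 2.16, 2.06, 6.73, 19.4, 9.77 and 5.35 CPM. In both genes the nuclei were above hepatocyte-like nuclei in the Ctrl and Pre-T mice and below them in both Post-T mice. Without Post-T 1 the terms of Gatm (-3.60) and Vsig4 (-3.47) did not pass.

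From Pre-T to Post-T the largest terms were those of Arhgap45 (-5.47), Grap2 (-5.32), Gm26740 (-5.15), Gatm (-5.12) and Trps1 (-5.04). Grap2, an adaptor of T cell receptor signaling, measured 2.37, 8.67, 32.6, 91.9, 6.87 and 0.50 CPM in the nuclei and 1.80, 2.06, 2.01, 4.41, 15.1 and 1.43 CPM in hepatocyte-like nuclei. These 5 passed under every alternative run. The shares of endothelial and macrophage marker lists moved the same way between the groups, and their part in these genes was not tested.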

How the results depend on the processing

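Depth, 2 mice a group and the choice of nuclei limited these results. Of 364 alternative values of 36 results, 286 kept their direction and their side of the threshold, or stayed close, 32 were weaker, 10 stronger, 12 moved and 24 changed sign. The cause of a change was not tested unless stated.

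The share of nuclei with 5000 or more genes in Post-T against Ctrl changed sign at a limit of 6000 genes (-0.339 percentage points) and with libraries thinned to the same mean UMIs per barcode (-0.449). The stellate share in Pre-T against Ctrl did so with 3 markers required (0.400). Leaving out 1 mouse at a time gave 4 ranges per share, for Pre-T and then Post-T less Ctrl, for Post-T less Pre-T and for all Western-diet mice less Ctrl. They were 2.40 to 7.0, -1.31 to 2.27, -6.52 to -1.92 and 1.12 to 4.03 points for the share of nuclei, and -0.206 to 27.4, -40.1 to -2.94, -53.7 to -16.5 and -14.4 to 8.08 for any further lineage. They were -6.92 to 14.5, -36.9 to -26.8, -46.3 to -24.9 and -23.5 to -7.11 for the endothelial list, 8.91 to 25.4, -15.8 to -10.8, -38.7 to -22.2 and -5.91 to 7.07 for the macrophage list, and -7.58 to 0.310, -15.0 to -12.1, -13.9 to -5.99 and -11.6 to -6.46 for the stellate list.

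Counts of genes changed between groups, for Pre-T less Ctrl, Post-T less Ctrl and Post-T less Pre-T in turn, were 346, 1580 and 2347. Without a filter on low counts they were 2327, 3731 and 4341, and DESeq2 called 1378 and 2688 in the first 2. Without nuclei carrying a further lineage they were 10, 526 and 89, with fewer nuclei tested. At 6000 genes Pre-T against Ctrl gave 1142, and nuclei closest to a hepatocyte-like cluster (chosen after seeing the data) gave 129 there and 1297 for Post-T against Pre-T. Leaving out 1 mouse gave 0 to 1895, 7 to 2635 and 363 to 3269. Interaction counts of 567, 1114 and 2237 became 148, 513 and 1198 with DESeq2, and 258, 581 and 1207 against hepatocyte-like nuclei with at least 5000 UMIs. With filterByExpr the first 2 became 210 and 739. Leaving out 1 mouse gave 198 to 753, 223 to 1878 and 716 to 2882.

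The replicate numbers did not pair the samples. Deviations from the group means correlated at -0.226, 0.103 and -0.0765 between same-numbered mice, over 2 pairs of mice each. A fit with the replicate block called 423, 1445 and 1823 genes between groups and 751, 1172 and 2244 in the interaction.

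Log2 ratios to hepatocyte-like nuclei changed sign when nuclei with a further lineage, chosen by such markers, were left out. Medians were then -0.90 for the endothelial, -0.90 for the macrophage, -0.82 for the stellate, 0.068 for the liver transcription factor, -0.13 for the S phase and -0.23 for the G2 and M phase list. Liver transcription factors stood at 0.020 in nuclei closest to a hepatocyte-like cluster. With TMM factors the hepatocyte list moved to -0.68 and the plasma protein list to -0.73, and against deeper hepatocyte-like nuclei the stellate list moved to 1.05. Without 1 mouse the medians ran from -0.53 to -0.39 (hepatocyte), 1.82 to 2.30 (endothelial), 1.43 to 1.86 (macrophage), 0.41 to 0.52 (stellate), -0.56 to -0.45 (plasma protein), -0.18 to 0.021 (liver transcription factors), 0.12 to 0.63 (S phase) and 0.14 to 0.20 (G2 and M phase). Genes over 2-fold higher in every mouse numbered 14 against deeper hepatocyte-like nuclei, 0 with TMM factors, 0 without further-lineage nuclei, 0 in nuclei closest to a hepatocyte-like cluster and 1 to 15 without 1 mouse. Genes over 2-fold lower numbered 1 with TMM factors, 3 without further-lineage nuclei and 0 to 1 without 1 mouse.

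Of 173 calls of named genes between groups, DESeq2 kept 173 and the fits without Ctrl 1 or Ctrl 2 kept 44 and 48. Without nuclei carrying a further lineage 50 were kept, and Flt1 in Post-T against Ctrl (0.17) and Cdh5 in Post-T against Pre-T (0.11) changed sign. The interaction term of Mdga2 from Ctrl to Pre-T ran from -0.15 without Pre-T 1, a change of sign, to 4.51 without Pre-T 2.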

Other observations

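H19 and Igf2 were high in 1 tumor-bearing mouse, both in its nuclei with 5000 or more genes and in its hepatocyte-like nuclei under the limit. H19, a fetal noncoding RNA that is silent in most of the adult liver, measured 0, 0, 0.130, 0.162, 0.125 and 118 CPM in Ctrl 1 and 2, then Pre-T 1 and 2, then Post-T 1 and 2. Its neighbor Igf2, a fetal growth factor, was at 0 CPM in 5 mice and at 20.5 CPM in Post-T 2. Hepatocyte-like nuclei of Post-T 2 had 125 CPM of H19 and 14.4 CPM of Igf2. Neither was called between Post-T and Ctrl (edgeR's quasi-likelihood test, adjusted p = 0.111 for H19). In the nuclei with 5000 or more genes Meg3 and Rian were also highest in that mouse, whose 79 nuclei were the fewest of the 6 and had the smallest share with a further lineage (12.7%).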
